A study of Mus musculus with 22 samples.

Results

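The diets were compared in the livers of male mice in which Nat1 and Nat2, the genes of arylamine N-acetyltransferases, had been deleted (KO). The liver RNA of 3 KO males fed a high-fat, high-sucrose diet (HFHS) was set against that of 4 KO males fed regular chow. The arrays were chosen by their labels, as every array of a male KO liver, which gave 8 of the 22 arrays and 7 of the 20 animals of the series. KO HFHS animal 3 was hybridised in both batches and supplied 2 of the 8 arrays. All mice were C57BL/6, so the HFHS and the chow males shared strain, sex and the Nat deletion and differed in diet. The other males were wild-type (WT) littermates on HFHS (3 animals, of which WT HFHS animal 1 was hybridised in both batches) or chow (4 animals), and the 6 females, 3 of each genotype, all ate HFHS. The diets were given for 12 weeks to animals aged 12 weeks. By energy, HFHS was 45% fat, 20% protein and 35% carbohydrate, and chow was 13.5% fat, 25.2% protein and 61.3% carbohydrate. The feeding protocol can also be read as 12 weeks of chow followed by 12 weeks of HFHS, and age and diet then cannot be told apart. The design text gives 4 males per HFHS group, whereas the sample titles show 3 animals and a technical repeat, so the animal was kept as the unit. The labels do not say how the Nat deletion was made.

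The NAT enzymes transfer an acetyl group from acetyl-CoA to arylamine and hydrazine compounds. A liver exposed to a diet rich in fat and sugar takes up and makes fatty acids, stores them as triglyceride in lipid droplets, burns them in mitochondria and peroxisomes or exports them in lipoproteins. Many liver genes of steroid, fatty acid and drug metabolism differ between the sexes, a pattern set by the timing of growth hormone pulses. Hepatocytes also secrete the acute phase proteins, which rise with inflammation, and hepcidin, the hormone that limits the release of iron into blood.

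Liver tissue was recovered in every array, as hepatocyte markers were near the top of the scale (Alb, serum albumin, at 13.33 to 13.54 on the log2 scale in the 8 arrays). Nat2 lay between 3.50 and 4.07 in the KO male arrays and between 6.42 and 7.16 in the WT male arrays, so by Nat2 no array went against its genotype label. Nat1 was low in both genotypes, at 2.09 to 2.85 in the KO and 2.87 to 3.95 in the WT male arrays. These values all lay below the table median of 4.57 and nearly touched, so Nat1 says little about genotype here. Array medians of the KO males ran from 4.55 to 4.60. All HFHS animals had an array in Batch1 and all chow males were in Batch2, so diet and batch overlapped apart from the repeat arrays of KO HFHS 3 and WT HFHS 1. The values of KO HFHS 3 changed between its arrays with an SD of 0.358 over the 13871 genes tested, and those of WT HFHS 1 with an SD of 0.351. On the first principal component of the 8 arrays (34.8% of the variance) the Batch1 arrays of KO HFHS 1, 2 and 3 stood at −32, −23.9 and −14.5. The Batch2 array of KO HFHS 3 stood at −1.86, nearer the chow arrays at 13.8 to 22.2. On the second component (20.3% of the variance) KO HFHS 3 lay apart, at −28.96 and −18.5 in its arrays, with the others between −0.61 and 20.3.

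The fit adjusted for batch and animal, and this fixed how much each array counted. The Batch2 array of KO HFHS 3 entered the diet difference with a weight of 0.612, its Batch1 array with 0.0361 and KO HFHS 1 and 2 with 0.176 each. Each chow array had a weight of −0.25. Through the batch term, the arrays of WT HFHS 1 entered with 0.388 (Batch2) and −0.188 (Batch1), and those of WT HFHS 2 and 3 with −0.0997 each. The batch term thus also drew on differences between animals of a group. The adjusted difference therefore rested above all on KO HFHS 3, and for called genes and for lists described by a median, values are given where leaving out this animal, leaving out the batch term or keeping to Batch2 moved them by over 1.5 times. The fit without the batch term used 1 array per animal and so also left out the Batch2 repeats of KO HFHS 3 and WT HFHS 1.

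Few genes passed in the batch-adjusted comparison of HFHS and chow KO males. Of 13871 genes tested, 28 passed at limma adjusted p below 0.05 (0.202%), with 15 higher (0.108%) and 13 lower (0.0937%) on HFHS. By size, the genes that rose were led by the female-predominant cytochrome P450 gene Cyp2b9, the siderophore-binding acute phase gene Lcn2, 9030619P08Rik, which has no assigned function, and the desmosomal cadherin gene Dsg1c. Those that fell were led by the hepcidin gene Hamp, the male-predominant P450 genes Cyp4a12a and Cyp4a12b and the acyl-CoA thioesterase gene Acot1. The adjusted p values of the 28 ran from 0.00513 to 0.0476, and at an unadjusted p below 0.05 there were 1544 genes (11.1%), 844 higher (6.08%) and 700 lower (5.05%). In 27 of the 28 the 4 HFHS arrays lay wholly above or below the 4 chow arrays, the exception being Flrt1. Over all tested genes 6.07% lay wholly above and 4.95% wholly below.

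**Figure D1:**
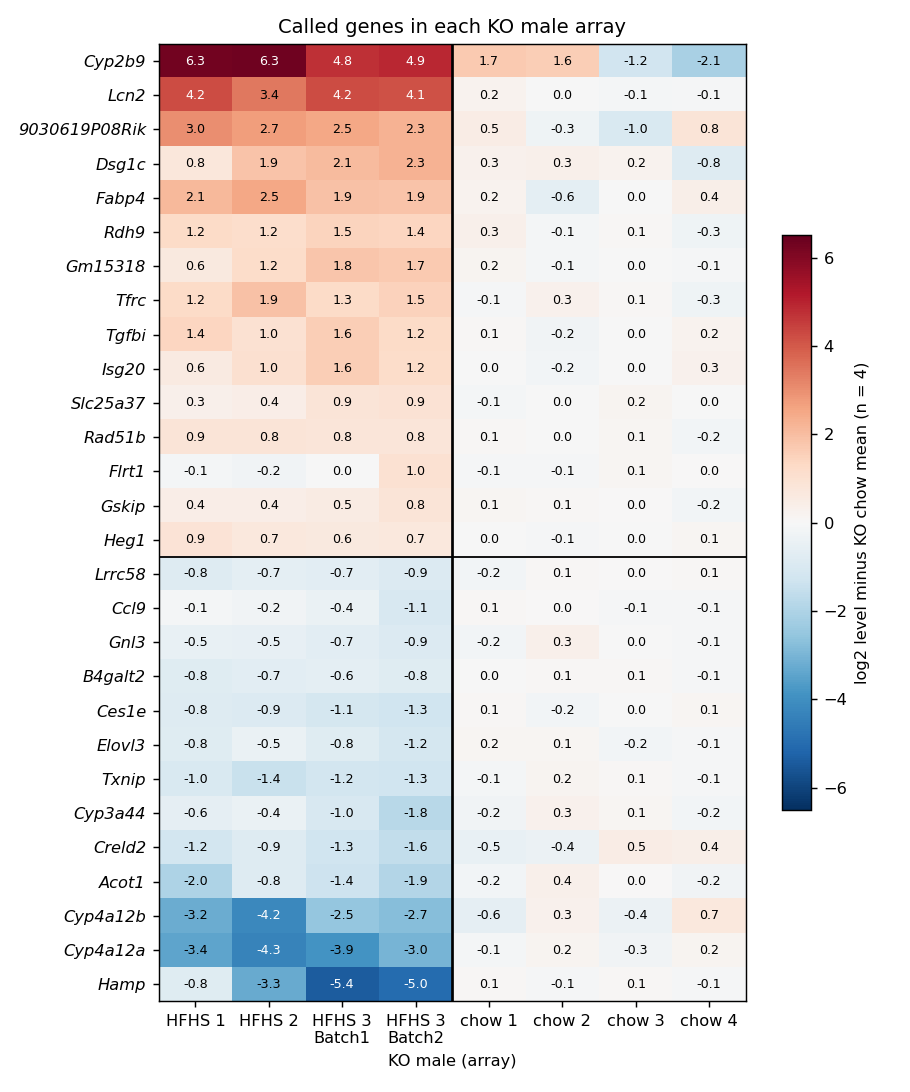
Heat map of the 28 called genes (rows) in the 8 KO male arrays (columns), as the log2 level minus the mean of the 4 chow arrays, with red for higher and blue for lower and the value in each cell. Cyp2b9 and Lcn2 stand out at the top and Hamp and Cyp4a12a at the bottom, Hamp is far less low in HFHS 1 than in HFHS 3, and Flrt1 is high in only the Batch2 array of HFHS 3.

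Sex-biased genes were among those with the largest differences. Cyp2b9, which is much more active in female than in male liver, stood at 11.77 in KO HFHS 1, 11.82 in KO HFHS 2 and 10.24 and 10.36 in the arrays of KO HFHS 3. The 4 chow animals had 7.20, 7.10, 4.25 and 3.38. Every HFHS array was above every chow array. The SD was 0.89 over the 3 HFHS animals, with KO HFHS 3 the lowest, and 1.96 over the 4 chow animals. The batch-adjusted log2 difference was 5.38 ± 1.01 (SE), or 41.7-fold (limma adjusted p = 0.0349). The chow level of Cyp2b9 reached below the table median of 4.57 in 2 animals, so its fold is taken against a low signal there. Cyp2b13, its female-predominant neighbour in the same P450 family, stood at 6.93, 8.71, 5.18 and 5.09 on HFHS and between 2.89 and 3.60 on chow. Its groups did not overlap either, but its difference of 2.87 ± 0.68 (SE) did not pass (limma adjusted p = 0.085). Without KO HFHS 3 the difference of Cyp2b13 was 4.76.

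The male-predominant fatty acid hydroxylase Cyp4a12a fell from 9.84 ± 0.21 (SD, 4 chow animals) to 5.95 ± 0.44 (SD, 3 HFHS animals). The arrays read 6.40, 5.52, 5.94 and 6.81 on HFHS and 9.73, 10.00, 9.59 and 10.02 on chow, which left a wide gap between the diets. The adjusted difference was −3.84 ± 0.52 (SE), 14.3-fold lower (limma adjusted p = 0.00513), and it passed in all 14 refits that left out a male. It was the only one of the 28 to do so. Cyp4a12b, a close paralog whose signal the probe sets may not separate fully, stood at 5.34, 4.38, 6.05 and 5.82 on HFHS and at 7.96, 8.85, 8.19 and 9.26 on chow. Its difference was −3.24 ± 0.49 (SE; limma adjusted p = 0.00917), and it passed in 13 of the 14 refits. Elovl3, which elongates very long chain fatty acids and is more abundant in males, fell by 1.19 on the log2 scale (limma adjusted p = 0.0389), from 9.98 to 10.31 on chow to 9.01 to 9.70 on HFHS, and its difference was −0.69 without the batch term. The female-biased P450 gene Cyp3a44 also fell, from 6.43 to 6.91 on chow to 4.84 to 6.19 on HFHS (−1.38 ± 0.27 SE, limma adjusted p = 0.0476). Its difference was −0.67 without KO HFHS 3 (limma adjusted p = 0.508) and −0.70 without the batch term.

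Of 24 tested genes in the male-biased list, 21 had a negative and 3 a positive difference, with a median of −0.52 against −0.00 over all genes, and 3 were called lower (Cyp4a12a, Cyp4a12b and Elovl3). The animals differed in how much of the list was low. Both KO HFHS 1 and 2 lay below all chow arrays in 18 of the 24 genes (75%), against 13.5% of all genes, whereas both arrays of KO HFHS 3 did so in 7 (29.2%, against 12.6% of all genes). Hsd3b5, a male-specific steroid dehydrogenase that defines the list, shows this most plainly. It stood at 2.58 and 2.35 in KO HFHS 1 and 2, at 7.54 and 8.0 in the arrays of KO HFHS 3, and at 7.10 to 9.04 on chow. Slco1a1, a male-biased organic anion uptake carrier of the same list, stood at 6.94, 6.90, 11.23 and 11.51 on HFHS and at 11.51 to 11.90 on chow. KO HFHS 1 and 2 were low for both genes, and KO HFHS 3 was within or just under the chow range. Neither gene passed (limma adjusted p = 0.59 for Hsd3b5 and 0.68 for Slco1a1). The list median was −1.41 without KO HFHS 3, −0.85 without the batch term and −0.10 within Batch2. Of the remaining members with the smallest p, the P450 gene Cyp2u1 had a difference of 0.71 and the glucuronosyltransferase gene Ugt2b1 one of −0.35, neither passing. Of 26 tested female-biased genes, 14 were positive and 12 negative (median 0.06), with 1 called in each direction. Their median was 0.14 without KO HFHS 3, 0.21 without the batch term and 0.02 within Batch2. The peroxisomal transporter gene Abcd2 stood at 9.02, 8.52, 8.16 and 8.50 on HFHS and at 5.68 to 7.99 on chow (1.80 ± 0.47 SE, limma adjusted p = 0.13). Cyp2c40, a female-biased P450, had a difference of −1.21.

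**Figure D2:**
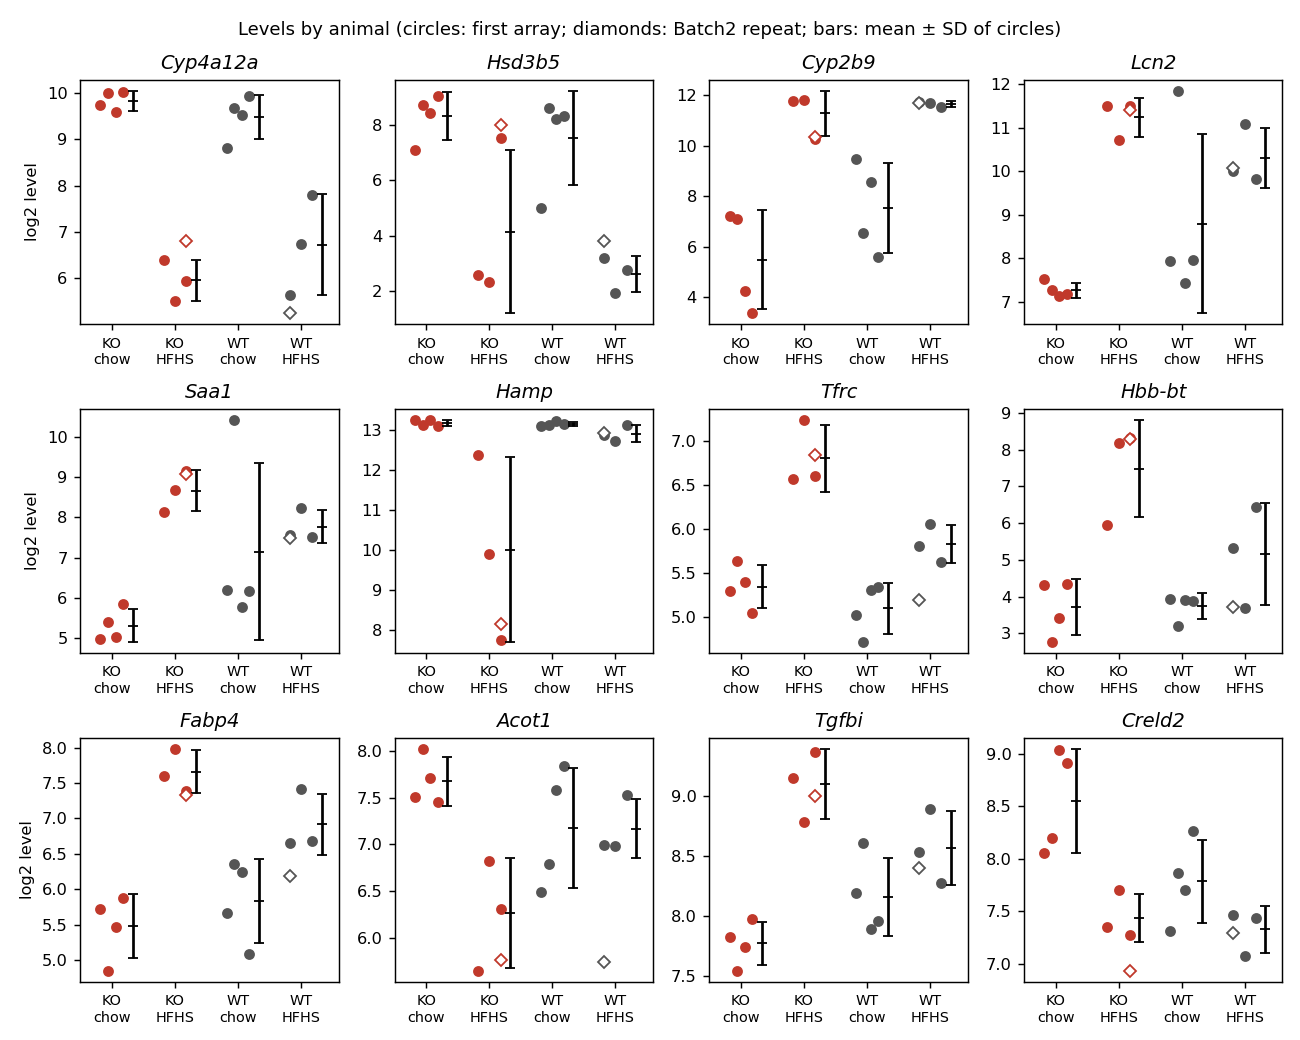
Log2 levels of 12 genes by animal in KO (red) and WT (grey) males on each diet. Circles are the Batch1 arrays of HFHS animals and the Batch2 arrays of chow animals, diamonds the Batch2 repeat of the animals with arrays in both batches, and bars the mean ± SD of the circles. The KO diets do not overlap for Cyp4a12a, Cyp2b9, Lcn2 or Hamp, while for Hsd3b5 KO HFHS 3 lies with the chow animals.

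Acute phase genes lay mostly higher on HFHS. Lcn2, which encodes lipocalin 2, a secreted protein that binds bacterial iron carriers, rose from 7.51, 7.26, 7.12 and 7.17 on chow to 11.50, 10.71, 11.50 and 11.39 on HFHS. The chow animals were close together and every HFHS array was more than 3 log2 units above them. The adjusted difference was 3.97 ± 0.81 (SE), 15.7-fold (limma adjusted p = 0.0476), and 3.68 without KO HFHS 3. Of the 26 tested acute phase genes 24 had a positive difference, with a median of 0.54, and 1 was called higher (Lcn2) and 1 lower (Hamp). The median was 0.30 without KO HFHS 3. Serum amyloid A gene Saa1 stood at 8.14, 8.69, 9.15 and 9.09 on HFHS and at 4.98, 5.41, 5.02 and 5.84 on chow. This is a gap of over 2 log2 units between the diets, and the difference of 3.45 ± 0.86 (SE) did not pass (limma adjusted p = 0.11). The metal-binding metallothionein Mt2 stood at 8.44, 9.93, 9.91 and 9.82 against 6.35 to 7.24 (2.66 ± 0.61 SE, limma adjusted p = 0.078). The protease inhibitor gene Serpina3n stood at 11.79 to 12.44 against 11.45 to 11.76 (0.79 ± 0.19 SE, limma adjusted p = 0.087). In 13 of the 26 members all HFHS arrays were above all chow arrays, against 6.07% of all genes. Both arrays of KO HFHS 3 were above the chow range in 20 members (76.9%) and both KO HFHS 1 and 2 in 14 (53.8%), against 13.8% and 17.8% of all genes, so the list stood mostly above chow in all 3 animals. The mean level of the 27 measured acute phase genes ran from 9.62 to 9.86 in the HFHS arrays and from 8.91 to 9.01 in the chow arrays.

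Hamp and Crp, the C-reactive protein gene, were the 2 acute phase members with a negative difference. Crp, named after its values were seen, stood at 11.38 to 11.65 on HFHS and at 11.71 to 11.91 on chow, and its difference of −0.21 did not pass (limma adjusted p = 0.629). Hepcidin, the product of Hamp, binds ferroportin, the iron exporter of cells, and causes the breakdown of ferroportin. Hamp lies at chr7:30942368-30944029 (GRCm38.p6), next to its paralog Hamp2, and its levels on chow were 13.23, 13.11, 13.24 and 13.09. On HFHS they were 12.36 in KO HFHS 1, 9.90 in KO HFHS 2 and 7.76 and 8.16 in the arrays of KO HFHS 3. All HFHS arrays were below the chow arrays, yet the 3 animals ranged from slightly to far below. The adjusted difference was −3.97 ± 0.72 (SE), 15.6-fold lower (limma adjusted p = 0.0344), and −2.00 without KO HFHS 3 (limma adjusted p = 0.249). Hamp2 stood at 8.56, 9.15, 5.53 and 5.72 on HFHS and at 9.79, 8.50, 9.02 and 7.33 on chow. Only KO HFHS 3 was outside the chow range of Hamp2 (difference −1.83 ± 0.88 SE, limma adjusted p = 0.45).

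The Hamp promoter is known for a pair of inputs, bone morphogenetic protein (BMP) signals from iron stores and STAT3 signals from interleukin-6. The 250 bases upstream of each RefSeq start are shown for Hamp and Hamp2 (GRCm38.p6, chr7:30944030-30944279 and chr7:30924182-30924431, both on the minus strand, 5′ to 3′). Capitals mark GGCGCC, a core of BMP response elements, and TTCTTGGAA, a match to the STAT palindrome TTCNNNGAA.
Hamp: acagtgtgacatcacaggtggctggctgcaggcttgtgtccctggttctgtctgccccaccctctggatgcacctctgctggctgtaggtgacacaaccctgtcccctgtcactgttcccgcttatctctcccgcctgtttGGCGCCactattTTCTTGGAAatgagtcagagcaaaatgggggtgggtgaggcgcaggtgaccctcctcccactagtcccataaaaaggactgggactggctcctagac
Hamp2: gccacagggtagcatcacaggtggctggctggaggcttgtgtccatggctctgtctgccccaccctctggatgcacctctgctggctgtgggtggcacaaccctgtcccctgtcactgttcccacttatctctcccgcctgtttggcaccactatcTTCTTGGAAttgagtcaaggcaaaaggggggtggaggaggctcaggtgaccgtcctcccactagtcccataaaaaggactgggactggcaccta
GGCGCC lies at positions −109 to −104 of Hamp from the start and TTCTTGGAA at −97 to −89, and in Hamp2 the palindrome lies at −94 to −86 and GGCGCC was not found in the window. Searched on both strands, GGCGCC occurs in 9.59% and TTCNNNGAA in 7.02% of the 32851 RefSeq promoter windows of this length. The motifs printed were kept after the windows had been searched. A match is a description of letters, and binding was not measured.

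Other genes of iron handling were read beside Hamp. Tfrc, the transferrin receptor that takes up iron and whose messenger is stabilised when cell iron is low, stood at 6.57, 7.24, 6.61 and 6.84 on HFHS and at 5.29, 5.64, 5.40 and 5.05 on chow. The HFHS arrays all lay above the chow arrays, and the difference was 1.27 ± 0.26 (SE), 2.41-fold (limma adjusted p = 0.0476). Slc25a37, the mitochondrial iron importer mitoferrin-1, was called but was not on the iron list. It rose by 0.90 ± 0.16 (SE; limma adjusted p = 0.0255), from 7.61 to 7.91 on chow to 8.09 to 8.69 on HFHS. Its difference was 0.55 without the batch term. Bmp6, the ligand that drives hepcidin from sinusoidal cells, stood at 5.14, 4.50, 4.59 and 4.36 on HFHS and at 5.49, 5.67, 6.12 and 5.57 on chow. Atoh8, a transcription factor gene that follows BMP signals, stood at 5.99, 5.31, 4.91 and 5.04 against 6.23 to 6.62. Both were below chow in all HFHS arrays and neither passed (differences of −1.08 and −1.13, limma adjusted p = 0.13 and 0.094). Hjv, the BMP co-receptor hemojuvelin, had a difference of 0.59 ± 0.22 (SE; limma adjusted p = 0.30). Over the 22 tested genes of the iron list, 7 were positive and 15 negative (median −0.12, and −0.25 without the batch term), with 1 called in each direction. Erythroid transcripts were read beside these, and none passed. Hbb-bt, an adult beta-globin, stood at 5.95, 8.18, 8.32 and 8.29 on HFHS and at 4.31, 2.77, 3.43 and 4.33 on chow (3.58 ± 0.76 SE, limma adjusted p = 0.053), with all HFHS arrays higher. All 3 tested erythroid markers had a positive difference, with a median of 0.97, which was 0.33 without KO HFHS 3 and 0.23 without the batch term. Both arrays of KO HFHS 3 were above the chow range in all 3 markers, against 13.8% of all genes. Both KO HFHS 1 and 2 were above it in 1 and below it in 1, against 17.8% and 13.5% of all genes. With 3 markers these counts say little about erythroid genes as a set. The mean of the 5 measured ran from 4.72 to 6.37 on HFHS and from 4.17 to 4.59 on chow, and 1 of the 5 (Epb42) was below the table median in every KO male array. The part of blood cells in the iron results was not tested.

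Genes of the endoplasmic reticulum (ER) stress response lay lower. The unfolded protein response raises chaperones and folding enzymes when proteins misfold in the ER, partly through the ER stress element, in which CCAAT and CCACG stand 9 bases apart. Creld2, an ER-resident protein of this response, fell from 8.06, 8.20, 9.04 and 8.92 on chow to 7.34, 7.70, 7.27 and 6.93 on HFHS. The diets did not overlap, and the chow animals formed a lower and a higher pair. The adjusted difference was −1.43 ± 0.29 (SE), 2.69-fold lower (limma adjusted p = 0.0476), and −1.10 without KO HFHS 3. The 250 bases upstream of Creld2 (GRCm38.p6, chr15:88819396-88819645, plus strand, RefSeq) hold that element on the opposite strand at −126 to −108, and it is shown because Creld2 was the gene of the list that passed. Capitals mark it.
Creld2: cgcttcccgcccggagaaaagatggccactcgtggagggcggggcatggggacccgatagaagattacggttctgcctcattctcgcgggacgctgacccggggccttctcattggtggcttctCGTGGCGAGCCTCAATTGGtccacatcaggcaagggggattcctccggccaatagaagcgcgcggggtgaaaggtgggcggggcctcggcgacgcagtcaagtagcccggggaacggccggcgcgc
The element occurs in 0.113% of the 32851 promoter windows. Counted by gene, with any window of a gene sufficing, it occurs in 7 of the 23 list genes that had windows (30.4%). These were Calr, Creld2, Derl3, Dnajc3, Hsp90b1, Hspa5 and Pdia6. Of the 25 tested members of the list, 19 had a negative difference (median −0.20, and −0.12 without KO HFHS 3) and Creld2 was the only one called. The chaperone Hyou1 stood at 7.65, 7.59, 7.51 and 7.47 on HFHS and at 8.35, 8.31, 8.76 and 8.92 on chow (−0.94 ± 0.22 SE, limma adjusted p = 0.087). In 9 of the 25 members, Hyou1 among them, all HFHS arrays were below all chow arrays, against 4.95% of all genes. The disulfide isomerase Pdia3 had a difference of −0.52, the ER degradation factor Derl3 of −0.92 and the secreted ER protein Manf of −0.59. Hspa5, the master chaperone BiP, stood at 10.77, 10.64, 10.45 and 10.41 against 10.72 to 11.14, which overlapped. Its difference was −0.36 ± 0.17 (SE; limma adjusted p = 0.44). The mean level of the 25 genes ran from 8.06 to 8.20 on HFHS and from 8.23 to 8.52 on chow.

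Among genes of fatty acid handling, Fabp4 rose and Acot1 fell. Fabp4, the fatty acid binding protein of fat cells and macrophages, stood at 7.60, 7.98, 7.39 and 7.33 on HFHS and at 5.72, 4.85, 5.47 and 5.87 on chow. The difference was 1.76 ± 0.36 (SE), 3.38-fold (limma adjusted p = 0.0476). Fabp4 is also on the adipocyte marker list, of which Adipoq and Lep, its defining genes, were below the table median in every KO male array, and whose measured mean ran from 6.41 to 6.67 on HFHS and from 6.17 to 6.52 on chow. Acot1, a cytosolic thioesterase that frees fatty acids from coenzyme A and is a target of PPARalpha, stood at 5.65, 6.82, 6.31 and 5.77 on HFHS and at 7.50, 8.02, 7.71 and 7.46 on chow. Its difference was −2.26 ± 0.46 (SE), 4.78-fold lower (limma adjusted p = 0.0476). Acot1 dropped by 1.25 in WT HFHS 1 and by 0.55 in KO HFHS 3 from the Batch1 to the Batch2 array, and without the batch term its diet difference was −1.41. Ces1e, a liver carboxylesterase, fell from 9.11 to 9.41 on chow to 8.01 to 8.47 on HFHS (−1.16 ± 0.21 SE, limma adjusted p = 0.0344). Txnip, a glucose-induced inhibitor of thioredoxin, fell from 10.06 to 10.38 to 8.77 to 9.24 (−1.27 ± 0.25 SE, limma adjusted p = 0.0476). Rdh9, a retinol and steroid dehydrogenase, rose from 7.39 to 8.01 to 8.84 to 9.14 (1.39 ± 0.21 SE, limma adjusted p = 0.00917) and passed in 12 of the 14 refits without a male. Fabp4 passed in 4 of these 14 refits, Acot1 in 5, Ces1e in 9 and Txnip in 3. Among genes described above, Slc25a37 passed in 11, Cyp2b9 and Hamp in 9 each, Creld2 in 6, Lcn2 in 4 and Tfrc in 3.

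In several lists of lipid metabolism the HFHS animals differed. Of 19 tested genes of peroxisomal and microsomal fatty acid oxidation, 14 were negative (median −0.36) and Cyp4a12a was called. The PPARalpha target Cyp4a10 stood at 10.00, 10.49, 9.16 and 9.59 on HFHS and at 10.82 to 11.79 on chow (−1.38 ± 0.33 SE, limma adjusted p = 0.096), and Cyp4a31 had a difference of −1.39. All HFHS arrays lay below chow for both genes. The mean level of the 19 genes ran from 8.49 to 8.86 on HFHS and from 8.98 to 9.26 on chow, without overlap. Both arrays of KO HFHS 3 were below the chow range in 11 of the 19 genes (57.9%), against 5 (26.3%) for both KO HFHS 1 and 2. Over all genes these shares were 12.6% and 13.5%, and without KO HFHS 3 the list median was 0.04. Mitochondrial fatty acid oxidation, the process named in the series title, had 7 positive and 13 negative differences (median −0.11), no gene called and a median of −0.02 without KO HFHS 3 and 0.08 without the batch term. In the list of lipid droplets and fatty acid uptake 13 were positive and 13 negative (median 0.02), and Fabp4 alone was called. The median was 0.40 without KO HFHS 3, 0.22 without the batch term and −0.04 within Batch2. Both KO HFHS 1 and 2 were above the chow range in 14 of these 26 genes (53.8%) and both arrays of KO HFHS 3 in 3 (11.5%), against 17.8% and 13.8% of all genes. Plin2, the main coat protein of liver lipid droplets, stood at 11.27, 10.53, 10.16 and 9.64 on HFHS and at 10.21 to 10.47 on chow. Cidec, which fuses droplets, stood at 9.81, 8.34, 5.71 and 5.10 against 6.38 to 7.55. KO HFHS 1 and 2 were thus above chow for both droplet genes and KO HFHS 3 below it, Cidec and Plin2 having been singled out after their values were seen. Neither passed (limma adjusted p = 0.88 for each). Apoa4, a lipoprotein gene of the list, stood at 13.13, 12.20, 11.69 and 11.15 against 10.00 to 10.88 (1.14 ± 0.43 SE, limma adjusted p = 0.31). The G0s2 gene for a lipase inhibitor had a difference of −0.85, the droplet scaffold gene Fitm1 one of −0.56 and the droplet coat gene Plin5 one of −0.54, none passing.

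**Figure D3:**
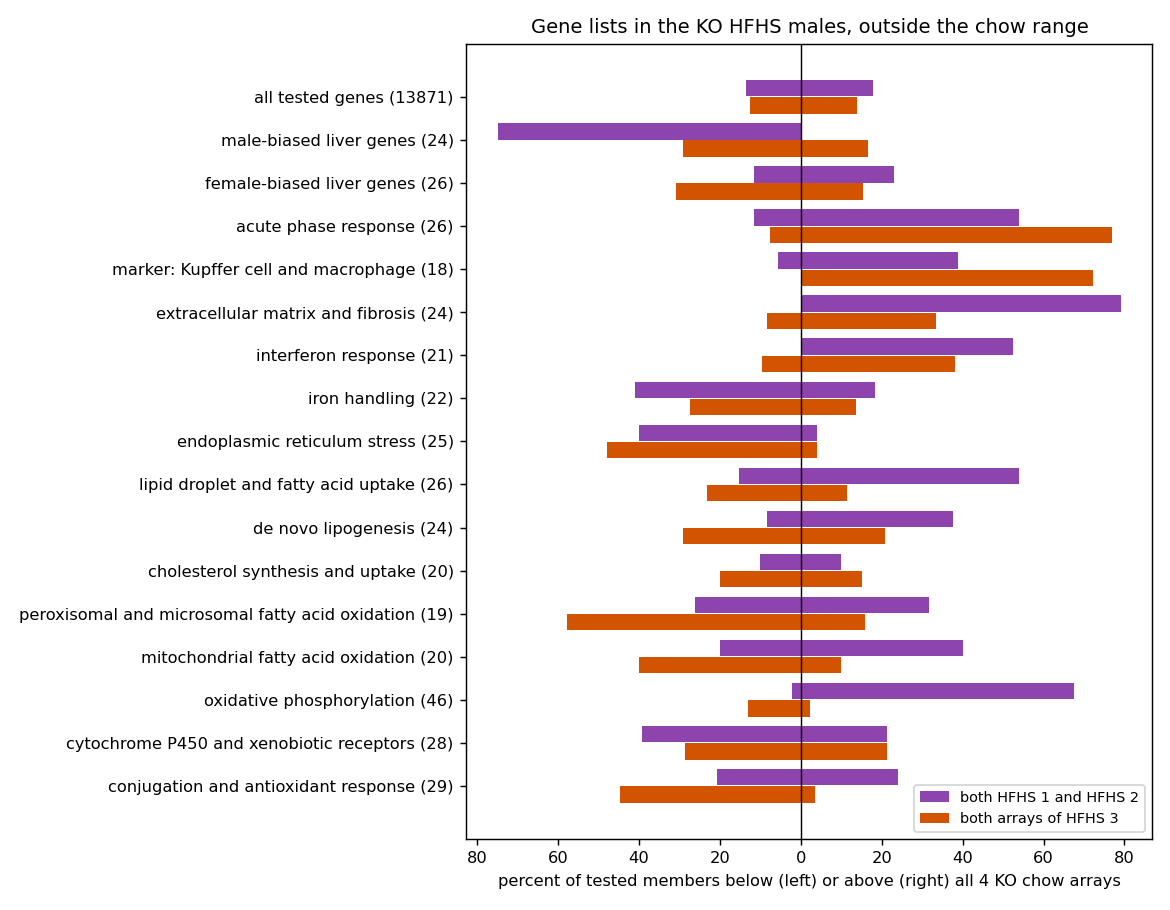
Share of the tested members of each gene list (number tested in brackets) that lay below (left) or above (right) all 4 KO chow arrays, in percent, for KO HFHS 1 and 2 together (purple, both arrays outside) and for both arrays of KO HFHS 3 (orange). Acute phase genes and macrophage markers extend to the right and ER stress genes to the left in both. Male-biased, lipid droplet and matrix genes differ between the animals. The bars of oxidative phosphorylation also differ, but those of KO HFHS 1 and 2 hold Batch1 arrays only. For that list KO HFHS 3 had a mean level of 8.38 in Batch1 and 8.01 in Batch2, with chow at 8.17 to 8.29. KO HFHS 1 and 2 stood at 8.48 and 8.53.

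Genes of the extracellular matrix and markers of liver macrophages had mostly positive differences. Tgfbi, a matrix protein induced by transforming growth factor beta, stood at 9.15, 8.78, 9.37 and 9.0 on HFHS and at 7.83, 7.55, 7.74 and 7.98 on chow. The groups did not overlap, and it rose by 1.17 ± 0.21 (SE), 2.24-fold (limma adjusted p = 0.0328). Of 24 tested genes of matrix and fibrosis 22 were positive (median 0.48) and Tgfbi alone was called. Tgfb1, the growth factor itself, had a difference of 0.63 ± 0.19 (SE; limma adjusted p = 0.20), Fn1, the fibronectin gene, of 0.57, Tagln2 of 0.73 and Anxa2 of 1.26. Col1a1, a chain of the main fibrillar collagen, stood at 6.54, 5.85, 5.16 and 5.55 against 5.21 to 5.75, with KO HFHS 1 and 2 above the chow range and KO HFHS 3 within or just below it. Both KO HFHS 1 and 2 were above chow in 19 of the 24 genes (79.2%) and both arrays of KO HFHS 3 in 8 (33.3%), against 17.8% and 13.8% of all genes. The list median was 0.88 without KO HFHS 3, 0.83 without the batch term and 0.17 within Batch2. The macrophage elastase gene Mmp12, singled out after its values were seen, was the member with the widest spread, at 8.87, 6.90, 4.58 and 4.54 against 4.29 to 4.68.

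All 18 tested markers of Kupffer cells and macrophages had a positive difference (median 0.50, and 0.28 without KO HFHS 3), and none passed. Both arrays of KO HFHS 3 were above the chow range in 13 of them (72.2%) and both KO HFHS 1 and 2 in 7 (38.9%), against 13.8% and 17.8% of all genes. Mpeg1, a pore-forming macrophage protein, stood at 7.95, 7.39, 8.05 and 8.36 on HFHS and at 6.59 to 7.30 on chow (1.27 ± 0.41 SE, limma adjusted p = 0.23). Clec4f, the lectin that marks Kupffer cells, stood at 7.68, 7.89, 8.42 and 8.18 against 7.20 to 7.66 (0.57 ± 0.24 SE, limma adjusted p = 0.37). The lysosomal markers Cd68 and Ctss had differences of 0.72 and 0.65, the macrophage survival factor Cd5l one of 0.83, and Adgre1, a general mouse macrophage marker, one of 0.52. The mean level of the 19 measured markers ran from 6.86 to 7.21 on HFHS and from 6.34 to 6.86 on chow, so the groups nearly touched. Markers of hepatic stellate cells had 12 positive of 15 (median 0.35, mean level 6.88 to 7.09 against 6.66 to 6.81). Their median was 0.11 without KO HFHS 3, with both arrays of that animal above the chow range in 8 markers (53.3%) and both KO HFHS 1 and 2 in 4 (26.7%). Of the 12 neutrophil markers, 9 were below the table median in every KO male array. More cells of a type and more RNA per cell cannot be told apart in whole tissue, and the part of these cells in the matrix, acute phase and Fabp4 results was not tested.

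The remaining called genes were of varied function. Those that rose were the desmosomal cadherin Dsg1c (1.91), the interferon-induced exonuclease Isg20 (1.09), the DNA repair gene Rad51b (0.90), the membrane protein gene Flrt1 (0.81), the kinase-anchoring protein Gskip (0.73), the endothelial receptor Heg1 (0.72) and 2 genes without an assigned function, 9030619P08Rik (2.34) and Gm15318 (1.31). Isg20 stood at 6.87, 7.30, 7.89 and 7.48 on HFHS and at 6.07 to 6.52 on chow (limma adjusted p = 0.0349). It was not on the interferon list, of whose 21 tested genes 16 were positive (median 0.31, 0.46 without KO HFHS 3 and 0.48 without the batch term) and none called. Dsg1c stood at 6.13, 7.24, 7.46 and 7.65 on HFHS and at 5.65, 5.72, 5.61 and 4.54 on chow (limma adjusted p = 0.0316). Without KO HFHS 3 the difference was 1.27 for Dsg1c (limma adjusted p = 0.321) and 0.62 for Gm15318 (limma adjusted p = 0.405), and without the batch term that of Gskip was 0.47. The genes that fell were the galactosyltransferase B4galt2 (−0.93), the nucleolar GTPase Gnl3 (−0.90), the chemokine Ccl9 (−0.88) and Lrrc58 (−0.76). B4galt2 was low in level, at 3.85 to 4.03 on HFHS and 4.56 to 4.72 on chow. Ccl9 stood at 9.22, 9.09, 8.89 and 8.27 on HFHS and at 9.24 to 9.42 on chow (limma adjusted p = 0.0254), a narrow gap apart from the Batch2 array of KO HFHS 3. The difference of Ccl9 was −0.59 without KO HFHS 3 and −0.26 without the batch term, and that of Gnl3 was −0.56 without the batch term.

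A batch term was also called for Ccl9 and Flrt1, 2 of the 28 genes. Over all genes tested it was called for 212 (1.53%), 32 higher (0.231%) and 180 lower (1.3%) in Batch2. Flrt1 stood at 4.84, 4.73, 4.90 and 5.93 on HFHS and at 4.88, 4.88, 5.05 and 4.97 on chow, so only the Batch2 array of KO HFHS 3 was above chow. Its difference was −0.12 (limma adjusted p = 0.635) in the fit without the batch term, which also leaves out that array, and 0.05 (limma adjusted p = 0.901) with the repeat arrays averaged and no batch term. It was 0.51 without KO HFHS 3. The other 27 kept their sign in the fit without the batch term. Without the batch term 993 genes were called (7.16%), among them 26 of the 28, all but Ccl9 and Flrt1. Oxidative phosphorylation genes differed between these fits. Of 46 tested, 41 had a negative adjusted difference (median −0.14, and −0.08 without KO HFHS 3) and none was called, whereas the median without the term was 0.27, and the list's batch difference had a median of −0.36.

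Within Batch2, the second array of KO HFHS 3 could be set directly against the 4 chow arrays. It lay outside their range in the direction of the call for all 28 genes, against 22.7% of all tested genes above and 24.3% below. This array carried the largest weight in choosing the 28, so the agreement is partly built in. The arrays of KO HFHS 1 and 2, which have less weight, were outside the chow range in that direction for 27 of the 28, against 17.8% of all genes above and 13.5% below. They also entered the fit that chose the 28, and their batch differs from that of the chow arrays. A fit on Batch2 alone called 12 genes (0.0865%), 5 of them among the 28, namely Hamp, Cyp4a12a, Txnip, Ccl9 and Gm15318. In that fit KO HFHS 3 is a lone animal assumed to vary like the chow animals, and Hamp stood at −5.01 and Cyp4a12a at −3.03. Leaving out KO HFHS 3 left 3 called genes (0.0216%), Cyp4a12a (−5.11), Cyp4a12b (−4.14) and Cyp2b13 (4.76). Leaving out WT HFHS 1, the other animal with arrays in both batches, left 1 (0.00721%). Cyp2b9 kept a difference of 6.33 and Lcn2 one of 3.68 without KO HFHS 3, neither passing (limma adjusted p = 0.159 and 0.286).

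**Figure D4:**
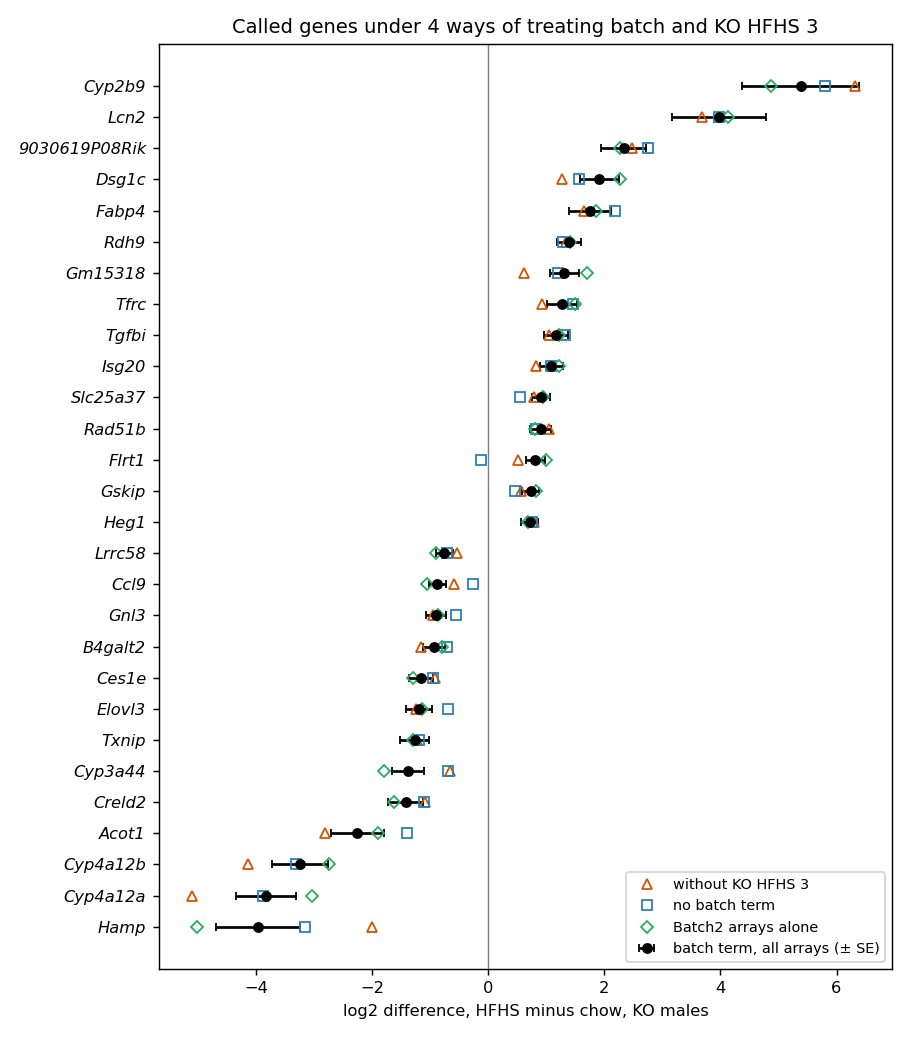
Log2 difference between HFHS and chow KO males for the 28 called genes from 4 fits: the batch-adjusted fit on all arrays (black, ± SE), without KO HFHS 3 (triangles), without the batch term (squares) and on the Batch2 arrays alone (diamonds). All symbols of a gene lie on the same side of 0 except the square of Flrt1 (−0.12), and Hamp ranges from −2.00 without KO HFHS 3 to −5.01 within Batch2.

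The same diets were compared in the WT males, whose design mirrors that of the KO males. In WT, 5 genes were called (0.036%), 1 higher (0.00721%) and 4 lower (0.0288%), of which 4 were among the 28, Cyp4a12a (−3.18), Cyp4a12b (−3.05), Gnl3 (−1.15) and Ccl9 (−0.96), and the fifth was Cyp2b13 (4.16). The KO and WT differences share the batch term and through it some arrays, so they are not independent, and the 28 were chosen for a large KO difference. For Hamp the WT arrays stood at 12.72 to 13.13 on HFHS and at 13.09 to 13.23 on chow, a difference of −0.74 beside −3.97 in KO. Lcn2 stood at 9.81 to 11.08 in WT on HFHS and at 7.92, 11.85, 7.43 and 7.96 on chow, where WT chow 2 was as high as the HFHS animals. The WT difference of Lcn2 was 1.45, and 3.97 in KO. For Fabp4 it was 0.57 beside 1.76, for Acot1 −1.05 beside −2.26, for Tfrc 0.38 beside 1.27 and for Tgfbi 0.24 beside 1.17. Other WT differences were nearer those in KO, with Cyp2b9 at 3.86 beside 5.38 and 9030619P08Rik at 2.06 beside 2.34. Dsg1c stood at 1.81 beside 1.91 and Cyp3a44 at −1.37 beside −1.38. All 28 had the same sign in both genotypes, and 26 had the larger absolute difference in KO. The median of the male-biased list was −0.42 in WT beside −0.52 in KO.

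Whether the diet difference itself differed between genotypes was tested by the interaction, in which the batch term nearly cancels. No gene passed (0 of 13871 by limma), and 619 had an unadjusted p below 0.05 (4.46%). The genes with the smallest p were Isg20 (0.99 ± 0.22 SE), the predicted gene Gm14285 (−1.02), Hamp (−3.23 ± 0.79 SE), Tgfbi (0.92 ± 0.23 SE) and the uracil-DNA glycosylase Ung (0.77), each with limma adjusted p = 0.878. Among the 28 called genes, 13 had an unadjusted interaction p below 0.05, but these genes had been chosen for a large KO difference. For Cyp4a12a the interaction was −0.65 and for Cyp2b9 1.52. Of the 20 cholesterol synthesis and uptake genes the KO median was 0.12 (12 positive) and the WT median −0.59, with an interaction median of 0.69 and no member called. The test thus called no gene as responding differently in KO and WT males, and at this number of animals it does not show that the responses are alike.

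**Figure D5:**
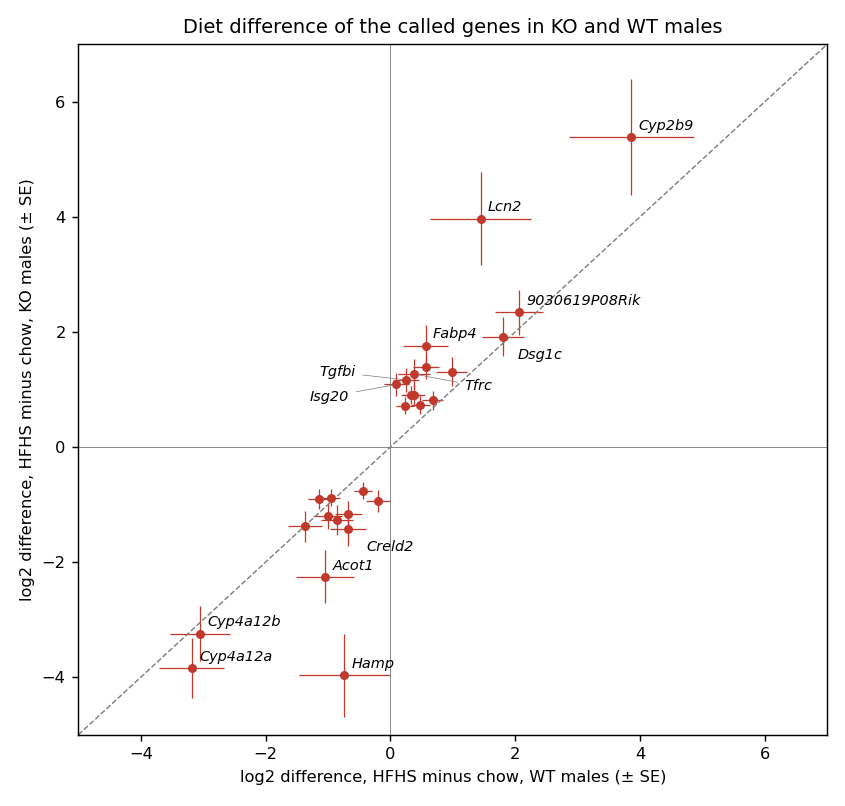
Log2 difference between HFHS and chow in KO males (vertical) against WT males (horizontal) for the 28 called genes, with bars of ± SE and a dashed line of equality. Cyp4a12a and Cyp4a12b lie near the line (−3.84 and −3.24 in KO, −3.18 and −3.05 in WT), while Hamp (−3.97 and −0.74) and Lcn2 (3.97 and 1.45) lie off it.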

How the data were processed

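Single-colour arrays of liver RNA gave the deposited log2 expression values. Per the submitters' processing notes, the authors computed them by RMA (robust multi-array average) with affy 1.48.0 and R 3.4.3, and they were used without further transformation. Of the 25428 probe sets, 24705 had 1 gene symbol, 0 had several and 723 had none. For the 1 symbol found on several probe sets the brightest was kept. RefSeq genes (GRCm38.p6) were assigned through Entrez numbers to 24673 probe sets. The labels name no genome build. Only genes exceeding the median of the whole table (4.57) on 3 or more arrays were tested, 13871 in number.

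Groups, animals and batches were read from the labels. The diets were compared by limma (lmFit, eBayes) on the 22 arrays together, with 6 group means, batch as a fixed effect and animals as random blocks (correlation 0.228). Two-sided p values were corrected for all tested genes (Benjamini-Hochberg), and genes under an adjusted p of 0.05 are referred to as called. Group means and SDs take 1 array per animal, from Batch1 where an animal had arrays in both. The correlation was held at 0.228 in the refits that left out an animal or an array, in those on the 2 KO or the 2 WT groups and in the one with a variance trend. The number of arrays limits the precision.

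The comparison and the gene lists were chosen with earlier results of these data known. Lists are described by counts and medians, without a set test. The genes named are those called (at most 15 in each direction), the 5 of smallest p for the interaction, and of each list up to 5 of smallest p besides those that define it, any others being marked as singled out. The RefSeq promoter windows covered 20 of the 28 called genes.

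The alternatives tried were dropping the filter or raising it to 10 arrays, keeping all probe sets, repeating quantile normalisation, a trended and robust variance, requiring calls to exceed a 1.5-fold change as well, blocking on replicate number, fitting only the compared groups, averaging repeats, omitting batch (1 array per animal), using Batch2 alone and leaving out each male. The fit was tested on simulated data. Software was R 4.3.3, limma 3.58.1, data.table (version 1.17.8), Python 3.11.15 and matplotlib 3.10.9.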

Additional observations from a re-analysis of the deposited data

Results flagged for a closer look

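Among 140 sets of 4 arrays examined (named genes, targeted genes and list means by group), 5 held an animal far from the other 3 of its group, and chance alone gives about 1 in 20. On chow, KO animal 4 had Dsg1c at 4.54, against 5.61 to 5.72 in the other KO animals, which widens the Dsg1c difference between diets. KO chow animal 1 had a mean of periportal hepatocyte markers of 10.23, against 10.31 to 10.32. WT chow animal 2 had Lcn2 at 11.85, against 7.43 to 7.96, which narrows the WT diet difference of Lcn2. In WT chow animal 4 Nat2 was at 6.42, against 6.79 to 6.85, and WT chow animal 1 had a mean of the male-biased genes of 8.76, against 9.30 to 9.37.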

How the results depend on the processing

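The 28 genes called in KO males became 11 with no filter, 7 with a replicate block, 3 in a fit on only the groups compared, 591 with repeats averaged and no batch term, 993 with no batch term (1 array per animal) and 12 on Batch2 alone, and leaving out 1 animal gave 1 (without WT HFHS 1) to 56 (without WT chow 2). Among the refits, there were 3 without KO HFHS 3, 5 without KO chow 2, 7 without KO chow 3, 10 without KO chow 4, 12 without WT HFHS 3 and 46 without KO HFHS 1. With alternatives chosen after seeing the data, an animal correlation of 0.8 gave 85 and leaving out the Batch2 array of KO HFHS 3 gave 1. The 5 genes called in WT became 8 with a stricter filter, 2 with a variance trend, 0 in only the groups compared, 93 with repeats averaged and no batch term, 480 with no batch term (1 array per animal), 2 on Batch2 alone, 17 at a correlation of 0.8, and 0 to 9 without 1 animal. The interaction went from 0 to 1 on Batch2 alone and to 0 to 3 without 1 animal. Flrt1 turned to −0.12 with no batch term and 1 array per animal, which leaves out the Batch2 repeat of KO HFHS 3 as well. The causes were not tested.

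Same-numbered HFHS and chow KO males had correlations of 0.103, 0.0789 and 0.124 of their deviations from group means. Only KO HFHS 1 correlated best with its own number. No clear pairing by replicate number was seen, though so few animals cannot exclude it. The replicate block left 7 genes in KO, 6 of them among the 28, and gave 7 in WT. Of the 28, Cyp4a12a passed in each of the 14 refits without 1 animal. Its adjusted p ran from 0.000513 to 0.023 over them. With 7 animals, and diet and batch separated only by 2 repeat arrays, the SE of the 28 differences lay between 0.15 and 1.01 log2 units.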
